A study of Mus musculus with 12 samples.

Results

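The HoxB cluster is a run of homeobox genes on mouse chromosome 11. The 8 members described here, Hoxb2 to Hoxb9, were taken by symbol from the 53465 genes listed in each of 12 forelimb bud RNA-seq libraries and ordered by their place in the cluster. Each library came from 1 pair of forelimb buds, and 4 groups held 3 libraries each. The Tbx3 groups were wild-type buds and buds homozygous for Tbx3ΔVenus, an allele with a Venus reporter and a transcription stop placed at the Tbx3 start codon, at E9.75 to E10 (28 to 31 somites). The Hand2 groups were Prrx1-Cre;Hand2Δ/Δc buds and Prrx1-Cre;Hand2+/+ controls, at E10 to E10.25 (31 to 33 somites). Both Hand2 groups carried Prrx1-Cre, a transgene that drives recombination in limb mesenchyme and not in the ectoderm, and both series were on a Swiss albino background.

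Hox genes encode homeodomain transcription factors that give cells of the body axis their position, and within a cluster the 3′ genes start earlier and further forward than the 5′ genes. HoxB genes are best known from the hindbrain, the spinal cord and the lateral plate mesoderm that forms the body wall and the early limb field, whereas the 5′ genes of HoxA and HoxD pattern the limb bud itself. HAND2, a basic helix-loop-helix factor, and TBX3, a T-box factor that mostly represses its targets, both act in the posterior mesenchyme of the early bud.

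The members span 82.6 kb of the plus strand (chr11:96271457-96354012, GRCm38), with Hoxb9 at the 5′ end and Hoxb2 at the 3′ end. All 8 had counts well above the filter in each library, from 185 counts for Hoxb7 in 1 wild-type library to 3346 for Hoxb3 in 1 Hand2-deficient library, so that all 8 were tested in each comparison. The 8 genes are close in sequence in the homeobox, which encodes the DNA-binding domain, so a count for 1 member has to be told from the others. Over the whole homeobox of 180 bases, pairs of members were identical at 58.9% to 88.9% of bases, with a median of 67.8%. At the read length of 85 bases the members were still distinct from each other and from the other Hox genes: for Hoxb4, Hoxb6, Hoxb7, Hoxb8 and Hoxb9 no 85-base word of a transcript occurred in a transcript of another gene. The exceptions lie at the 3′ end, where antisense transcripts overlap the members. Hoxb3 shares 50.1% of its 85-base words with Hoxb3os, Hoxb2 shares 24.9% with the same gene, and Hoxb5 shares 0.575% with Hoxb5os. Expected counts were not whole numbers in 12 libraries for Hoxb2 and Hoxb3 and in 4 for Hoxb5, against 0 for the members without such an overlap. Some reads of the overlapping members were thus divided between genes. Whether counting used strand is not given in the sources used here. Values of Hoxb2, Hoxb3 and Hoxb3os are uncertain to that extent.

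The libraries held 23311692 to 31764847 counts in the Tbx3 series and 60183822 to 68568005 in the Hand2 series. Hand2 stood at 119, 119.5 and 125 counts per 1000000 (CPM) in the Hand2 wild types and at 0.185, 2.2 and 0.382 CPM in the deficient buds. Tbx3 stood at 78.6, 78.0 and 79.2 CPM in the Tbx3 wild types and at 80.7, 79.9 and 73.6 CPM in the libraries labelled Tbx3-deficient, so the count of this gene does not check that label and the direction of each Tbx3 comparison rests on the labels. The limb mesenchyme markers Prrx1 (340.9 to 731.8 CPM) and Tbx5 (55.4 to 105.7 CPM) were present in all 12 libraries. Of 9 neural tube and neuron markers 6 (Sox2, Pax6, Olig2, Neurog2, Mnx1 and Elavl3) were each under 1 CPM in all 12, while Dcx stood at 17.8 to 71.0 CPM, Tubb3 at 6.11 to 12.3 CPM and Isl1 at 0.347 to 1.63 CPM. Hand2-deficient replicate 1 stood apart from its group: a chi-square comparison of counts gave means of 209.2 and 223.4 per gene against replicates 2 and 3, where all other pairs within groups gave 14 to 29.6. A single gene carried 72.5% and 73.9% of these sums, and the medians per gene were 4.05 and 3.28, against 1.54 to 2.88 in the other pairs. By X- and Y-linked transcripts the Tbx3 wild types were 3 female embryos and the labelled Tbx3-deficient embryos 1 female and 2 male, while the Hand2 wild types were 2 female and 1 male and the Hand2-deficient embryos 1 female and 2 male.

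In wild-type buds the members stood at similar levels. Levels are compared between genes as CPM per kb of exon. In the Tbx3 wild types the order ran from Hoxb3 (10.1 ± 0.785, SD, n = 3) through Hoxb8 (9.2 ± 2.06), Hoxb6 (9.04 ± 1.67), Hoxb4 (8.76 ± 0.733), Hoxb2 (8.69 ± 0.916), Hoxb5 (7.74 ± 2.02) and Hoxb9 (6.27 ± 3.09) to Hoxb7 (5.82 ± 0.731). In the Hand2 wild types Hoxb3 again came first (8.29 ± 1.28) and Hoxb9 last (4.2 ± 2.7), with the other 6 between 4.98 and 6.28. Each neighbour in either order overlapped the one above it between libraries, so that the order of single genes is not resolved. Hoxb1, the 3′ neighbour of Hoxb2 and a gene of the early hindbrain, was lower than any member, at 1.61 ± 0.425 and 0.966 ± 0.458 CPM per kb. Hoxb13, at the far 5′ end, had 2 counts in all over the 12 libraries. Hoxb9 also varied more between wild-type embryos than the other members: its coefficient of variation was 49.3% in the Tbx3 wild types and 64.2% in the Hand2 wild types, against 7.8% to 26.1% and 15.4% to 39.3% for the other 7.

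**Figure D1:**
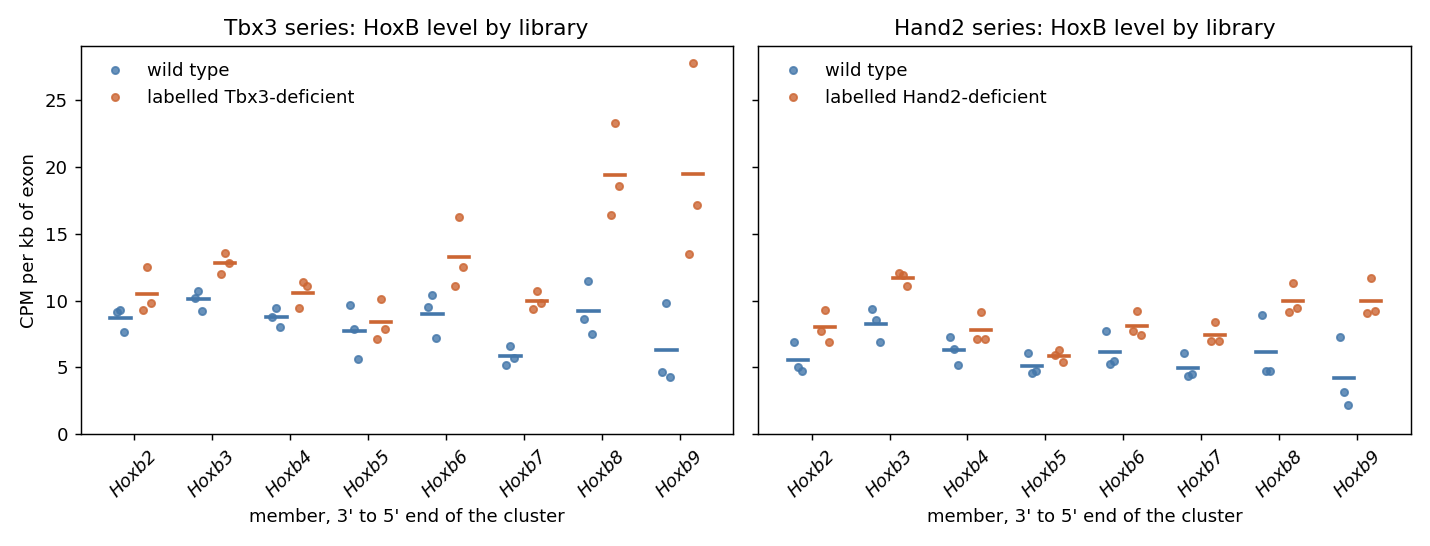
Level of each member in CPM per kb of exon (y axis), ordered along the cluster (x axis); points are libraries, bars are means of 3, blue is wild type and orange the deficient group. In both series every deficient library lies above every wild type at Hoxb3, Hoxb7, Hoxb8 and Hoxb9, and the libraries overlap at Hoxb4 and Hoxb5.

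In buds labelled Tbx3-deficient, 2 of the 8 members rose, Hoxb7 and Hoxb8, and all 8 had a fold change above 1. Across all 15130 genes tested, 0.727% were called higher, that is with an adjusted p under 0.05, and 49.1% had a fold change above 1. At an unadjusted p under 0.05, 6 of 8 members were higher, where 7.96% of all genes were. The median log2 fold change of the members was 0.45, against 0.0 over all genes. The groups did not overlap, with each labelled deficient library above each wild type, for 5 of 8 members (Hoxb3, Hoxb6, Hoxb7, Hoxb8 and Hoxb9), where 10.5% of all genes showed this. In bulk tissue a larger number of cells that express these genes and more RNA per cell cannot be told apart.

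Hoxb8, a regulator of axial skeleton and blood progenitor identity, stood at 22.7, 30.3 and 19.8 CPM in wild types and at 43.1, 61.4 and 49.0 CPM in the labelled deficient buds. The lowest deficient library lay above the highest wild type. The log2 fold change was 1.08 (SE 0.172, edgeR's quasi-likelihood test, adjusted p = 0.0397), a 2.12-fold rise. Hoxb7, its 3′ neighbour, stood at 7.95, 10.2 and 8.82 CPM against 14.5, 16.6 and 15.2 CPM. These groups were also apart, and the log2 fold change was 0.78 (SE 0.118, edgeR adjusted p = 0.0358).

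Hoxb9, the most 5′ of the 8 members and a gene that helps pattern the thoracic skeleton, had the highest estimate and did not pass the test. Its levels were 12.1, 25.3 and 11 CPM in wild types and 34.8, 71.5 and 44.4 CPM in the labelled deficient buds. The groups did not overlap, but replicate 2 was high in each of them. The log2 fold change was 1.65 (SE 0.359, edgeR adjusted p = 0.0954), or 3.13-fold.

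The other 5 members did not pass either. Hoxb6, expressed in the forelimb field and flank, went from 18.7, 20.5 and 14.1 CPM to 21.7, 31.9 and 24.5 CPM (log2 fold change 0.56, SE 0.171, edgeR adjusted p = 0.198). Its groups were narrowly apart. Hoxb5, which acts in setting the forelimb position along the axis, stood at 27.0, 22.0 and 15.7 CPM against 19.9, 28.1 and 22.0 CPM, with overlapping groups and a log2 fold change of 0.12 (SE 0.197, edgeR adjusted p = 0.825). Among the 3′ members Hoxb4, Hoxb3 and Hoxb2, known from hindbrain and blood progenitor patterning, the log2 fold changes were 0.28, 0.35 and 0.28 (edgeR adjusted p = 0.216, 0.0765 and 0.352). Of these 3, only Hoxb3 had groups that did not overlap, at 43.5, 45.7 and 39.1 CPM against 51.0, 57.8 and 54.3 CPM.

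From Hoxb5, the lowest estimate among the members, the estimates grew toward the 5′ end. They were 0.12 for Hoxb5, 0.56 for Hoxb6, 0.78 for Hoxb7, 1.08 for Hoxb8 and 1.65 for Hoxb9 (SE 0.197, 0.171, 0.118, 0.172 and 0.359). The steps between neighbours were not tested. Hoxb4, Hoxb3 and Hoxb2 (0.28, 0.35 and 0.28) lay above Hoxb5, so the order does not run through the whole cluster. Within each library the rise from Hoxb5 to Hoxb9 can be read as their ratio per kb, chosen after its values were seen. The ratio of Hoxb9 to Hoxb5 was 0.485, 1.25 and 0.76 in wild types and 1.89, 2.76 and 2.18 in the labelled deficient buds. All 3 labelled deficient buds thus held more Hoxb9 than Hoxb5 per kb, against 1 of 3 wild types (two-sided exact permutation p = 0.1, the smallest that 3 against 3 can give). In the labelled deficient group Hoxb9 (19.5 ± 7.4 CPM per kb, SD, n = 3) and Hoxb8 (19.4 ± 3.54) came first and Hoxb5 (8.38 ± 1.53) last.

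**Figure D2:**
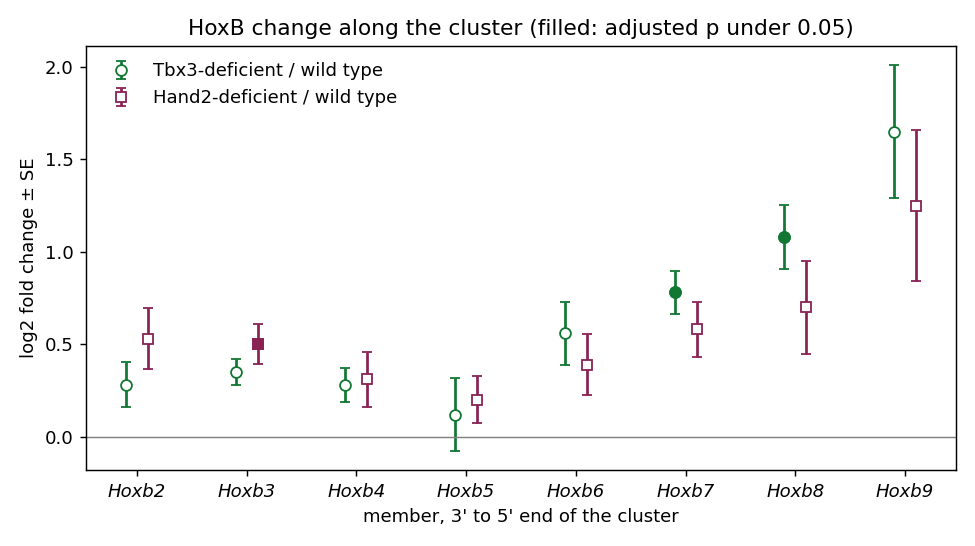
Log2 fold change with its SE (y axis) for each member in cluster order (x axis), circles for the Tbx3 series and squares for the Hand2 series, 3 libraries a group; filled symbols passed at an adjusted p under 0.05. From Hoxb5 to Hoxb9 the estimates rise from 0.12 to 1.65 and from 0.20 to 1.25. Hoxb2, Hoxb3 and Hoxb4 lie above Hoxb5 in both series.

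Both calls were lost in most fits with 1 library fewer, and with embryo sex as a covariate. Hoxb7 and Hoxb8 each kept an adjusted p under 0.05 without labelled deficient replicate 1 and lost it without any 1 of the other 5 libraries (adjusted p up to 0.13 and 0.119), while the log2 fold changes stayed within 0.71 to 0.88 and 0.93 to 1.27. When embryo sex entered the fit, 0 of the 8 were called, at log2 fold changes of 0.76 for Hoxb7 (edgeR adjusted p = 0.272), 1.02 for Hoxb8 (0.288) and 1.47 for Hoxb9 (0.495). The 3 wild types were all female, so the sex effect in that fit came from the labelled deficient embryos alone (1 female and 2 male). Sex and genotype can therefore not be fully told apart in this series. The 1 female labelled deficient embryo stood at 15.2 CPM for Hoxb7, 49.0 for Hoxb8 and 44.4 for Hoxb9. The highest wild types, all female, stood at 10.2, 30.3 and 25.3 CPM. This order follows from groups already given as apart, so it adds nothing on sex. For Hoxb5 the same embryo stood at 22.0 CPM, below the highest wild type at 27.0 CPM.

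In Hand2-deficient buds 1 of the 8 members rose, Hoxb3, and all 8 again had a fold change above 1. Across all 17488 genes tested, 4.68% were called higher, so 1 of 8 members is little above that background. At an unadjusted p under 0.05, 6 of 8 members were higher, where 15.6% of all genes were. The median log2 fold change of the members was 0.51, against 0.01 over all genes, of which 52.1% had a fold change above 1. The groups did not overlap for 5 of 8 members, Hoxb2, Hoxb3, Hoxb7, Hoxb8 and Hoxb9, where 18.8% of all genes were higher without overlap. Hoxb3 stood at 39.9, 36.5 and 29.3 CPM in the Hand2 wild types and at 51.4, 50.8 and 47.2 CPM in the deficient buds. Its lowest deficient library lay above its highest wild type, with a log2 fold change of 0.50 (SE 0.108, edgeR adjusted p = 0.0381). That call held without wild-type replicate 1 and was lost without any 1 of the other 5 libraries. Without deficient replicate 1, the library that stood apart, edgeR called 0 of 8 members and 487 genes in all. The log2 fold changes in that fit were 0.19 for Hoxb5 to 1.31 for Hoxb9 and 0.47 for Hoxb3 (edgeR adjusted p = 0.103).

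The 5′ members had estimates above 0 and did not pass the test. Hoxb9 stood at 18.7, 8.08 and 5.65 CPM in wild types and at 23.4, 30.2 and 23.8 CPM in Hand2-deficient buds. Wild-type replicate 1 came close to the deficient buds, and the other 2 wild types were far below. The log2 fold change was 1.25 (SE 0.408, edgeR adjusted p = 0.0877). Hoxb8 showed the same split, at 23.5, 12.5 and 12.5 CPM against 24.2, 29.8 and 24.9 CPM (log2 fold change 0.70, SE 0.25, edgeR adjusted p = 0.106). Hoxb7 stood at 9.36, 6.77 and 6.93 CPM against 10.7, 13 and 10.8 CPM (0.58, SE 0.149, edgeR adjusted p = 0.0516).

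Wild-type replicate 1 was the highest of its group for all 8 members. Without it 4 members were called: Hoxb3, Hoxb7 (log2 fold change 0.75, edgeR adjusted p = 0.0399), Hoxb8 (1.07, 0.00957) and Hoxb9 (1.91, 0.00957). Over all genes 368 were called in that fit, against 1836 with this library kept. Without each other library in turn, Hoxb9 stayed between 0.94 and 1.31 and was not called.

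The members in the middle and at the 3′ end of the cluster did not pass either, apart from Hoxb3. Hoxb6 gave a log2 fold change of 0.39 (edgeR adjusted p = 0.148), Hoxb5 0.20 (0.317), Hoxb4 0.31 (0.198) and Hoxb2 0.53 (0.0812). Hoxb2, which acts in the hindbrain, stood at 24, 17.5 and 16.5 CPM against 27.0, 32.5 and 24.2 CPM, with every deficient library above every wild type by a narrow margin. From Hoxb5 to Hoxb9 the estimates again grew in cluster order, while Hoxb2 (0.53) and Hoxb3 (0.50) lay above Hoxb6. Hoxb9 over Hoxb5 per kb was 1.19, 0.689 and 0.466 in wild types against 1.54, 1.85 and 1.71 in deficient buds (two-sided exact permutation p = 0.1, the smallest possible). As in the Tbx3 series, this ratio was chosen after its values were seen, so its p is a description only. In the deficient buds Hoxb3 (11.7 ± 0.53 CPM per kb, SD, n = 3), Hoxb9 (10.0 ± 1.48) and Hoxb8 (9.98 ± 1.16) came first, and Hoxb5 (5.88 ± 0.457) lay below all others without overlap with Hoxb7 above it.

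The Hand2 effect and the Tbx3 effect were compared in 1 fit of all 12 libraries, as a difference of log2 fold changes. None of the 8 members passed by edgeR, where 1.68% of all genes were called in either direction. At an unadjusted edgeR p under 0.05 there were 0 of 8 members, where 8.23% of all genes were higher and 9.19% lower. DESeq2 called 0 members and 859 genes in all. The differences ran from -0.39 for Hoxb9 (SE 0.609) to 0.25 for Hoxb2 (SE 0.229). An SE of 0.609 leaves room for a sizeable difference at Hoxb9, and without Hand2 wild-type replicate 1 its sign turned, to 0.26.

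The older wild types of the Hand2 series held less of each member than the younger wild types of the Tbx3 series, with log2 fold changes of -0.23 to -0.65 and a median of -0.57 against 0.0 over all genes, of which 48.9% had an estimate above 0. None of the 8 was called by edgeR (0.398% of all genes were called lower), although 5 of 8 had an unadjusted p under 0.05 (9.05% of all genes). DESeq2 called 4 of the 8, and 885 genes in all in either direction, where edgeR called 123. The groups did not overlap for 2 members (11.5% of all genes). These were Hoxb2, at 31.9, 32.4 and 26.6 CPM against 24, 17.5 and 16.5 CPM (log2 fold change -0.65, SE 0.15, edgeR adjusted p = 0.0994), and Hoxb4, at 22.5, 24.3 and 20.6 CPM against 18.7, 16.3 and 13.3 CPM (-0.48, SE 0.128, 0.125). Without Hand2 wild-type replicate 1, Hoxb2 was called (adjusted p = 0.0384). Stage, colony, Prrx1-Cre and sequencing depth all differ between these 2 groups, and their parts cannot be told apart.

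Beside the 5′ HoxB members, HoxC genes of the same paralogue groups were higher in the buds labelled Tbx3-deficient, and no HoxA or HoxD gene was called. Of 16 paralogues of groups 2 to 9 in HoxA, HoxC and HoxD, 3 rose in the buds labelled Tbx3-deficient (0.727% of all genes did) and none fell, and all 3 were HoxC genes. Hoxc8, which patterns the thoracic level, went from 10.8, 12.1 and 10.5 CPM to 21.6, 22.4 and 23 CPM, clearly apart (log2 fold change 1.00, SE 0.0835, edgeR adjusted p = 0.00616). Hoxc9, which acts at the same level, went from 4.77, 5.47 and 5.45 CPM to 9.85, 10.8 and 11.2 CPM (1.02, SE 0.122, 0.0153), and Hoxc6, a marker of the forelimb to thoracic region, gave 0.53 (SE 0.0761, 0.031). Hoxc8 kept its call without each library in turn and with sex as a covariate (adjusted p = 0.0471), whereas Hoxc9 and Hoxc6 lost theirs with sex (0.087 and 0.191). The HoxA and HoxD genes of groups 8 and 9 had estimates below 0, at -0.27 for Hoxa9, -0.09 for Hoxd8 and -0.27 for Hoxd9, and none of them passed. The other 13 of the 16 had estimates above 0. Among them Hoxa7, the paralogue of Hoxb7, gave 0.32 (SE 0.0672, edgeR adjusted p = 0.0877), with each labelled deficient library above each wild type.

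In Hand2-deficient buds 6 of the 16 paralogues rose, where 4.68% of all genes did, and none fell: Hoxa2, Hoxa3, Hoxc4, Hoxc6, Hoxc8 and Hoxc9, at log2 fold changes of 0.46 to 0.71. Most of these calls were lost with 1 library fewer, as that of Hoxb3 was: Hoxc6 held in 5 of 6 fits that left out 1 library (not without wild-type replicate 3, adjusted p = 0.0513), and the other 5 held in 0 to 2. Between the wild types Hoxd3 fell (log2 fold change -1.18, SE 0.155, edgeR adjusted p = 0.0248), a call that held in 2 of 6 fits with 1 library fewer (adjusted p up to 0.0882), and all 16 paralogues had estimates below 0.

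**Figure D3:**
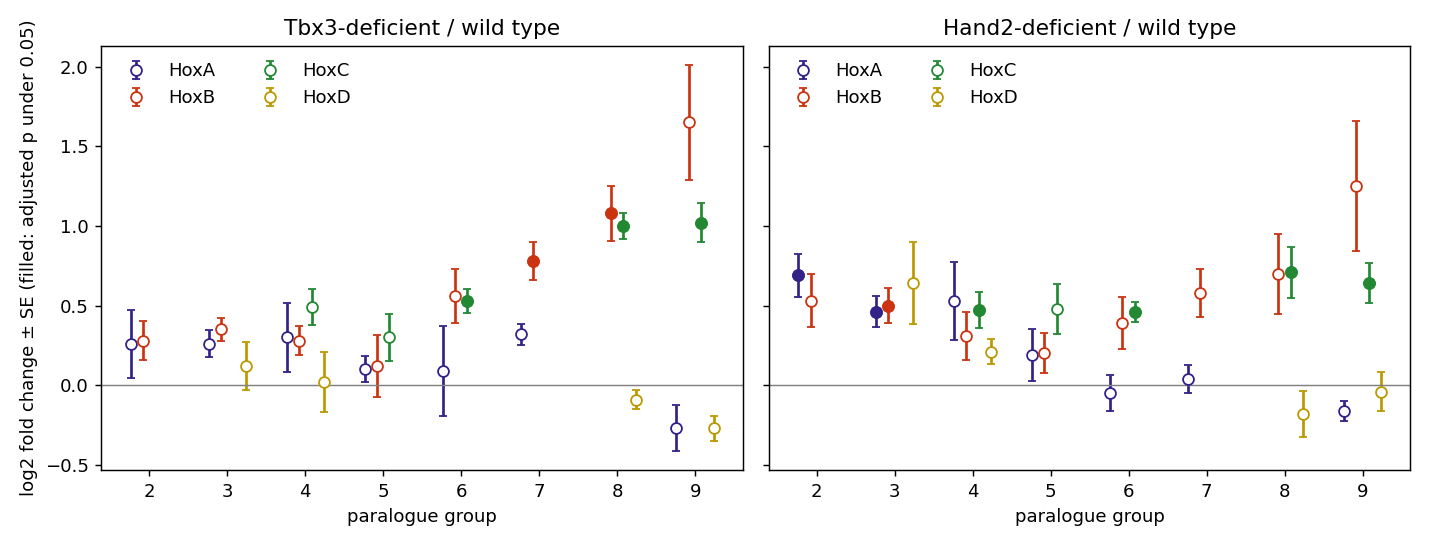
Log2 fold change with its SE (y axis) by paralogue group 2 to 9 (x axis) for HoxA, HoxB, HoxC and HoxD genes, left the Tbx3 series and right the Hand2 series; filled symbols passed at an adjusted p under 0.05. In groups 8 and 9 HoxB and HoxC lie above 0 and HoxA and HoxD below 0 in both series. In group 7 both Hoxb7 and Hoxa7 lie above 0 (Hoxa7 at 0.32 and 0.04).

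Because paralogues of 1 group can act in the same cells, the share of a group's summed per-kb level that comes from HoxB was taken in each library. Hoxb9 made up 3.58%, 6.68% and 3.48% of group 9 in the Tbx3 wild types and 10.6%, 21.9% and 13.4% in the labelled deficient buds. Hoxb8 made up 19.4% ± 2.33 (SD, n = 3) of group 8 against 32.7% ± 3.69, and Hoxb7 29.1% ± 1.53 of group 7 against 36.2% ± 2.76. In the Hand2 series the same 3 shares went from 4.2% ± 2.23 to 10.0% ± 0.832, from 18.5% ± 3.43 to 27.6% ± 0.6 and from 28.4% ± 1.92 to 36.7% ± 1.7. For these 3 groups no deficient library overlapped a wild type in either series (two-sided exact permutation p = 0.1 each, the smallest possible, and 0.267 adjusted over 16 shares). In groups 2 to 6 the libraries overlapped, with HoxB holding most of groups 2 and 3 (60% to 73.9% in group means) and less of groups 4 and 5 (14.9% to 25.2%).

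**Figure D4:**
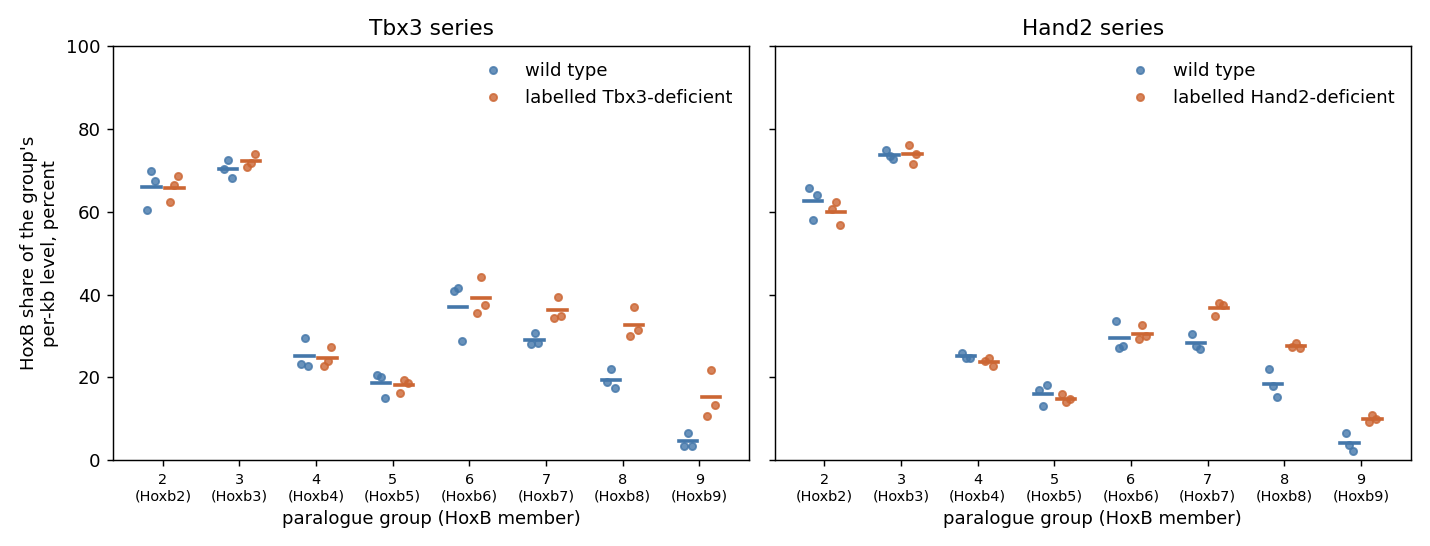
HoxB share of the summed per-kb level of each paralogue group, in percent (y axis), by group (x axis); points are libraries and bars means of 3. Deficient libraries lie above all wild types in groups 7, 8 and 9 in both series, and overlap them in groups 2 to 6.

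Of 8 other genes inside the cluster 4 were under 1 CPM in all 12 libraries. The antisense gene Hoxb3os rose in Hand2-deficient buds (7.31, 5.89 and 6.24 CPM against 8.34, 9.09 and 9.41 CPM, log2 fold change 0.47, SE 0.107, edgeR adjusted p = 0.0423), the same direction as Hoxb3, whose exons it overlaps. That call was lost without each library in turn. Hoxb3 and Hoxb3os may share reads, so their rises are not separate observations. In the Tbx3 series Hoxb3os gave 0.42 (adjusted p = 0.116). Hoxb1, Hoxb5os and Gm53 were not called in either series, and Hoxb13, Mir10a, Mir196a-1 and Gm11536 were too low to test.

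Of the TALE cofactors, homeodomain partners with which HOX proteins bind DNA, 0 of 9 were called in the Tbx3 series. In Hand2-deficient buds 3 of 9 rose (4.68% of all genes did), among them Meis1 (log2 fold change 0.46, edgeR adjusted p = 0.00793) and Pbx3 (0.16, 0.0443). Meis1 kept its call without each library in turn, and Pbx3 lost it in all 6 cases. Of 18 regulators of 3′ Hox genes, mostly retinoic acid enzymes and receptors and the CDX factors, 14 could be tested in the Tbx3 series and 0 were called. Aldh1a2, the enzyme that makes retinoic acid in lateral plate and somites, stood at 19.0, 2.54 and 8.36 CPM in those wild types and at 39.5, 57.1 and 35.8 CPM in the labelled deficient buds, apart but variable (log2 fold change 2.15, SE 0.535, edgeR adjusted p = 0.128). In Hand2-deficient buds 2 of 15 tested regulators rose, among them the retinal reductase Dhrs3 (log2 fold change 0.57, edgeR adjusted p = 0.0353). Dhrs3 kept its call in 1 of 6 fits with 1 library fewer and lost it with sex as a covariate (0.0711).

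Markers of tissues next to the bud were summed in each library. Summed over 7 body wall and coelomic lining markers (Gata6, Gata4, Wt1, Tcf21, Upk3b, Msln and Tbx20), the level was 44.7, 7.13 and 13.8 CPM in the Tbx3 wild types and 62.0, 87.4 and 44.5 CPM in the labelled deficient buds. In the Hand2 series it was 29.3, 14.2 and 5.34 CPM in wild types and 22.4, 52.0 and 38.3 CPM in deficient buds. The groups overlapped in both series. The library highest in this sum within its group was also the highest for Hoxb9 in 3 of the 4 groups. The exception was the Tbx3 wild types, where replicate 1 had the highest marker sum and 12.1 CPM of Hoxb9, and replicate 2 the lowest sum and 25.3 CPM. Of the 7 markers 4 were tested in each series, and 0 of them were called with Tbx3 and 1 with Hand2, Gata4 (log2 fold change 3.14, edgeR adjusted p = 0.0402). In the Hand2 series 4.68% of all genes were called higher.

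Somite marker sums (8 genes) were 112.6 to 128.4 CPM against 130.2 to 138.2 CPM in the Tbx3 series and 100.3 to 124.8 CPM against 140.6 to 175.2 CPM in the Hand2 series, and the genes behind them differed. In the Tbx3 series 0 of 7 tested were called, with Meox1 at 0.80 (edgeR adjusted p = 0.0512), Uncx at 1.43 (0.099) and Tbx18 at -0.71 (0.139) on the log2 scale. In the Hand2 series Tbx18, which limb bud mesenchyme also expresses, was the 1 of 8 called, where 4.68% of all genes were called higher. It stood at 33.9 to 45.1 against 54.4 to 71.1 CPM (log2 fold change 0.58, edgeR adjusted p = 0.0439). Pax1 went from 1.12, 10.5 and 4.57 CPM to 36.2, 8.79 and 16.3 CPM with overlap, while Meox1 (0.19), Tcf15 (0.20) and Uncx (-0.27) overlapped between groups. Neural crest sums were 46.3 to 54.2 CPM against 63.5 to 88.6 CPM and 33.2 to 45.2 CPM against 44.0 to 51.6 CPM, and macrophage sums 1.62 to 4.6 CPM against 5.25 to 6.47 CPM and 3.5 to 5.19 CPM against 6.0 to 10.6 CPM, with 0 of these markers called in either series. Limb mesenchyme sums (11 genes) were 2329 to 2468 CPM against 2116 to 2326 CPM in the Tbx3 series. There 1 of the 11 was called, Tbx5, which was lower (log2 fold change -0.53, edgeR adjusted p = 0.0397), where 0.284% of all genes were called lower. Prrx1 gave -0.35 (0.148) and Meis1 0.29 (0.199). Of the 11, 4 had estimates above 0, and the median log2 fold change was -0.05. In the Hand2 series the limb mesenchyme sums were 2161 to 2404 CPM against 2553 to 3007 CPM. There 5 of 11 genes were called higher and 1 lower, where 4.68% and 5.82% of all genes were. Limb ectoderm sums (10 genes) overlapped in the Tbx3 series and were 333.4 to 355.1 CPM against 280.7 to 309.1 CPM in the Hand2 series. Sums of the 9 neural tube and neuron markers overlapped in both series, and 0 of 3 tested were called in the Tbx3 series. In the Hand2 series 1 of 5 tested was called, Isl1, which was higher (log2 fold change 1.6, edgeR adjusted p = 0.0108). The part of these tissues in the HoxB differences was not tested.

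**Figure D5:**
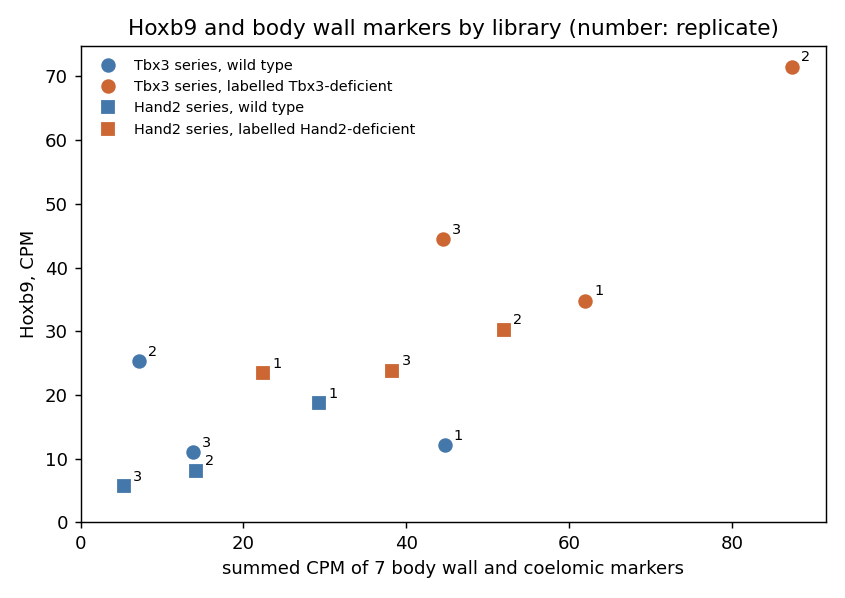
Hoxb9 level in CPM (y axis) against the summed CPM of 7 body wall and coelomic lining markers (x axis) in the 12 libraries, numbered by replicate; circles are the Tbx3 series, squares the Hand2 series, blue wild type and orange deficient. Labelled Tbx3-deficient replicate 2 is highest on both axes (87.4 and 71.5 CPM), while Tbx3 wild-type replicate 1 pairs a sum of 44.7 with 12.1 CPM and replicate 2 a sum of 7.13 with 25.3 CPM.

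The members varied together between embryos of the same group. With each library's log2 CPM taken as its deviation from its group mean, the 28 pairs of members had Pearson correlations of 0.40 to 0.96 over 12 libraries (median 0.82), which share library preparation and dissection. Correlations of other gene pairs are not given here, so these correlations are not shown to be particular to HoxB. Labelled Tbx3-deficient replicate 2 was the highest of its group for all 8 members, replicate 1 the lowest for all 8, and Hand2-deficient replicate 2 the highest for 7. Outside the cluster, the 6 genes of at least 5 CPM whose profile over the 12 libraries, centred within each series, was most like the members' mean included Arl4c (r = 0.969), Slc16a6 (0.935), Ncald (0.932), Adamts1 (0.919) and Ngfr (0.912), out of 10831 genes compared.

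The promoters of 2 of the 8 members were in the RefSeq table (GRCm38.p6). They are shown because 1 belongs to a member that was called in the Tbx3 series, Hoxb8 (chr11:96281655-96281904, plus strand), and the other to a member that was not, Hoxb4 (chr11:96318017-96318266, plus strand). Each run is the 250 bases before the start, and capitals mark matches on either strand to the motifs named after it.
Hoxb8: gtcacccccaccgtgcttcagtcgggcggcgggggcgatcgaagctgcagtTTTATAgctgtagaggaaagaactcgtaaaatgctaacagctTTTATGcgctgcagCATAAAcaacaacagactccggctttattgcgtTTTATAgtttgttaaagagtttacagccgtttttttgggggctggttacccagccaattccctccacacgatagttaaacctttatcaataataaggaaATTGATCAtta
Hoxb4: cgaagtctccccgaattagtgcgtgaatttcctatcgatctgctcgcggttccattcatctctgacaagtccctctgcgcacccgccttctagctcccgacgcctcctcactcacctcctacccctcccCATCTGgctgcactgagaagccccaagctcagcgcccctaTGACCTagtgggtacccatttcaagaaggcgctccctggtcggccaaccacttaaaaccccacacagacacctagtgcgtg
The motifs searched were the T-box half-site GGTGTG (in 16.3% of 32851 promoter windows of this length), the E-box CANNTG (66.2%) with CATCTG as 1 form of it (14.4%), the nuclear receptor half-site AGGTCA (14.0%), the CDX site TTTATG (10.8%), the HOX-PBX site TGATNNAT (7.7%) and the TATA box TATAAA (12.4%). Hoxb8 held 2 matches to the CDX site, 2 to the TATA box and 1 to the HOX-PBX site. Hoxb4 held 1 E-box, of the form CATCTG, and 1 nuclear receptor half-site. Neither window held the T-box half-site.

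The cluster also encodes microRNAs, and miR-196a (chr11:96265187-96265208, plus strand, 5′ of Hoxb9) is known to direct cleavage of Hoxb8 mRNA. Its mature sequence is shown with the seed, bases 2 to 8, in capitals, beside the best match to it in the Hoxb8 3′ UTR and the 2 seed matches found in the 3′ UTRs of the other members. In the target sites capitals mark bases that pair with the microRNA.
miR-196a-5p: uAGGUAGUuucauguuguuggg
Hoxb8: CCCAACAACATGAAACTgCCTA
Hoxb7: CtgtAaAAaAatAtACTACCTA
Hoxb6: tggAAggAgcacAtACTACCTA
The Hoxb8 site pairs at 21 of 22 bases, with a G:U pair at the other, and no other gene among the 21153 with an annotated 3′ UTR held a site with as many pairs. The Hoxb7 and Hoxb6 sites pair at 14 and 12 bases. Seed matches occur in 6.8% of all 3′ UTRs, and in 2.2% and 2.6% of those within 20% of the lengths of Hoxb7 and Hoxb6. Mir196a-1 itself had 3 counts in all over 12 libraries, and these libraries do not measure mature microRNAs.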

How the data were processed

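The deposited files hold expected counts per gene, which the authors deposited; the submitters' processing notes name FastQC 0.11.4, STAR 2.5.2, RSEM 1.3.0 and the mm10 build, with no roles or order, and the annotation release is not given in the sources used here. RNA came from flash-frozen bud pairs through a SMARTer library kit and 85-base single-end reads, per the labels' protocols. Here expected counts were rounded, genes filtered with filterByExpr (count minimum 10, total 15), scaled by TMM and tested in each comparison's 6 libraries with edgeR 4.0.16's quasi-likelihood test (two-sided), with Benjamini-Hochberg adjustment over all genes tested. The difference of effects used all 12. Printed CPM are on 1 TMM scale over 12 libraries, and levels per kb divide by the union of GENCODE M21 exons. Each SE was derived from the log2 estimate and its F statistic. Library totals of 23311692 to 68568005 counts set the counting precision.

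The members and gene lists were chosen with earlier results of these data known. The text names the members, the other genes of the cluster, the targeted genes, the called genes among paralogues, TALE cofactors and regulators, up to 6 per comparison among those with an unadjusted p under 0.05, and the 6 genes of most similar profile; some of these are not reported here. Fits were tested on simulated data. DESeq2 1.42.0, limma 3.58.1 (voom), total-count and RLE scaling, no low-count filter, embryo sex as a covariate, a replicate block and leaving out each library were alternatives.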

Additional observations from a re-analysis of the deposited data

Results flagged for a closer look

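Among the members and the gene lists beside them, 6 genes differed in their response between the 2 series by a test of the difference itself (edgeR's quasi-likelihood test, adjusted p under 0.05), and none of them was a member. Crabp2, which carries retinoic acid within the cell, had a log2 fold change of -0.22 in the Tbx3 series (edgeR adjusted p = 0.134) and of 0.10 in the Hand2 series (adjusted p = 0.136), and the difference was 0.32 (SE 0.0645, edgeR adjusted p = 0.0335). It kept an adjusted p under 0.05 in 1 of the 12 fits that left out 1 library (range 0.0372 to 0.0946). The limb mesenchyme markers Prrx2 (-0.18 and 0.53) and Lhx2 (-0.28 and 0.46) differed by 0.71 and 0.74 (edgeR adjusted p = 0.00994 and 0.0485), and Tbx18 (-0.71 and 0.58) by 1.29 (0.0311). Pitx1, which specifies hindlimb identity, had a log2 fold change of 4.38 in the Tbx3 series and of 1.39 in the Hand2 series, a difference of -2.99 (edgeR adjusted p = 0.00607). Hand2, targeted in 1 of the series, differed by -6.55 (edgeR adjusted p = 0.000435).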

How the results depend on the processing

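All 8 members kept a fold change above 1 in the Hand2 series under every alternative run (112 of 112 values), and in the Tbx3 series in 110 of 112, the exceptions being Hoxb5 without wild-type replicate 3 (-0.06) and without labelled deficient replicate 2 (-0.03), in a range of -0.06 to 0.32. Against the 2 members called in the Tbx3 series, 5 were called with no low-count filter, 5 by DESeq2 and 0 with embryo sex as a covariate. Against the 1 in the Hand2 series, 2 were called with no low-count filter, 3 by DESeq2, 3 by limma-voom, 2 in the fit of all 12 libraries and 2 with sex (Hoxb3 and Hoxb4). Against the 0 between the wild types, 1 was called with no filter and 4 by DESeq2. The cause of these shifts was not tested. Leaving out each library in turn gave 0 to 2 members called in the Tbx3 series, 0 to 4 in the Hand2 series, 0 to 1 between the wild types and 0 to 0 for the difference of effects.

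Over all genes, the 153 calls in the Tbx3 series became 504 with no low-count filter, 551 by DESeq2, 99 by limma-voom, 422 in the fit of all 12 libraries, 22 with sex and 23 to 220 without 1 library. The 1836 in the Hand2 series became 1036 with total counts only, 3451 by DESeq2, 526 with sex and 218 to 2223 without 1 library. The 123 between the wild types became 326 with no filter, 885 by DESeq2 and 36 to 165 without 1 library, and the 292 for the difference of effects 859 by DESeq2 and 123 to 336.

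No sign of pairing by replicate number was seen: deviations of same-numbered libraries correlated at -0.13 to 0.04, and of other-numbered ones at -0.17 to 0.15. With 3 libraries a group, such a check cannot exclude a pairing. With the replicate block, 3, 0, 0 and 0 members were called in the Tbx3 series, the Hand2 series, between the wild types and for the difference, and 87, 161, 31 and 69 genes in all.

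For the difference of effects the sign turned when 1 library was left out for Hoxb4 (-0.10 to 0.15 over 12 fits), Hoxb5 (-0.12 to 0.26), Hoxb6 (-0.28 to 0.03) and Hoxb9 (-0.86 to 0.26). With 3 libraries a group, an exact test of a single value cannot go below 0.1.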
